A study of Bos grunniens and Bos grunniens x Bos taurus with 12 samples.

Results

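Ribosome footprints, the short RNA fragments that a translating ribosome protects, were counted for 9 genes named for their place late in male germ cell development. They are 7 transcription regulators of pachytene spermatocytes and spermatids (*MYBL1*, *TCFL5*, *CREM*, *SOX30*, *RFX2*, *RFX1* and *TBPL1*) and 2 genes of spermatids (*KLHL10* and *SPEM2*), found by their symbol among 20965 genes, of which 13662 carry a symbol. Rows were found for 8 of the 9, that is 6 regulators and both spermatid genes, and *MYBL1* was not analysed here. Their identifiers are ENSBGRG00000020529 for *TCFL5*, ENSBGRG00000014601 for *CREM*, ENSBGRG00000015400 for *SOX30*, ENSBGRG00000000923 for *RFX2*, ENSBGRG00000023159 for *RFX1*, ENSBGRG00000019080 for *TBPL1*, ENSBGRG00000014148 for *KLHL10* and ENSBGRG00000019492 for *SPEM2*.

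All 12 libraries came from whole testis, with 3 libraries in each of 4 groups, 1 library per animal. Group Y6M held yaks of 6 months, the juvenile stage, group Y18M yaks of 18 months, at puberty, and group Y4Y yaks of 4 years, at sexual maturity. Group CY held cattle–yak of 4 years, the hybrid of a Jersey bull and a yak cow, whose males are sterile. The adult yaks and the hybrids are the pair matched for age, while the 3 yak groups differ in age alone as far as the labels say, and no library received a drug or a genetic change. The labels describe castration as the source of every testis, whereas the methods describe euthanasia for the yaks and castration for the hybrids, so the way of collection and the hybrid cross cannot be told apart if the methods hold.

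In spermatogenesis, spermatocytes pass through a long pachytene stage of meiotic prophase, during which a wave of new genes is switched on, and the haploid round spermatids that follow switch on another. *TCFL5*, a basic helix-loop-helix factor, acts in the pachytene wave, as does *MYBL1*, a MYB factor. *CREM*, which binds cAMP response elements, *SOX30*, an HMG-box factor, *RFX2* and *RFX1*, which bind X-box motifs in genes of cilia, and *TBPL1*, a relative of the TATA-binding protein, act on the genes of spermatids. *KLHL10* encodes a substrate adaptor of a ubiquitin ligase of spermatids, and *SPEM2* belongs with the genes of late spermatid shaping.

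The total count per library ranged from 16304058 to 17862516 in Y4Y, from 38437889 to 52616039 in CY, from 25816963 to 37167651 in Y6M and from 21309151 to 24542362 in Y18M, so the adult yak libraries, where these genes were highest, were the shallowest. Testis markers were present throughout, with *INHA*, an inhibin subunit of Sertoli cells, at a mean of 569 FPKM in Y4Y and 870 FPKM in CY, where FPKM is a footprint count divided by the gene's length in kilobases and by the size of the library. Replicate 2 of Y18M stood apart from its group. Across genes its log2 CPM, the count scaled to a common library size, correlated at 0.877 and 0.90 with the other 2 libraries of its age, which correlated at 0.974 with each other, and the pairs within the remaining groups correlated at 0.982 to 0.991. Every comparison with Y18M is therefore given with and without that library.

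*TCFL5* read 1.57, 1.84 and 1.30 FPKM in Y6M, 1.46, 41.97 and 1.91 in Y18M, 67.89, 50.51 and 94.68 in Y4Y and 2.64, 2.46 and 1.54 in CY. All 3 adult yaks lay above every other library, Y18M replicate 2 came next, and the remaining 8 libraries overlapped. Among the 1378 genes to which the tables assign a transcription factor family, the mean of *TCFL5* ranked 54 in Y4Y and 782 in CY.

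*CREM* read 0.54, 1.23 and 2.27 FPKM in Y6M, 3.31, 23.77 and 2.42 in Y18M, 55.94, 55.12 and 37.07 in Y4Y and 2.22, 4.48 and 1.33 in CY. The adult yaks again lay above all other libraries, and the hybrid range overlapped those of Y6M and Y18M. In counts, the hybrid values were 93, 81 and 34, against 501 to 833 in the shallower adult yak libraries.

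*SOX30* read 0.18, 0.35 and 0.11 FPKM in Y6M, 0.81, 10.78 and 1.24 in Y18M, 18.04, 17.30 and 15.72 in Y4Y and 2.16, 1.58 and 1.57 in CY. Here the hybrids lay above every juvenile library, and every adult yak lay above every hybrid. *RFX2*, of the RFX family, had the same order, with 0.16, 0.15 and 0.23 FPKM in Y6M, 0.24, 12.02 and 0.44 in Y18M, 20.91, 20.23 and 21.65 in Y4Y and 1.51, 0.85 and 0.78 in CY. Its adult values were the tightest of the regulators relative to their mean, at 20.9 ± 0.71 FPKM (SD, n = 3).

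*RFX1* and *TBPL1* were the regulators already well read in juvenile testis. *RFX1* read 5.08, 6.97 and 7.88 FPKM in Y6M, 7.91, 25.25 and 10.69 in Y18M, 38.74, 46.08 and 33.81 in Y4Y and 8.76, 8.45 and 8.58 in CY. *TBPL1* read 11.86, 15.29 and 13.55 FPKM in Y6M, 14.06, 59.44 and 34.31 in Y18M, 83.13, 60.80 and 68.66 in Y4Y and 26.45, 24.77 and 27.63 in CY. The 3 hybrids were nearly alike in both genes, and they lay below all adult yaks and, in FPKM, above all juvenile yaks. On CPM scaled by TMM, edgeR's correction for composition, *RFX1* overlapped between CY and Y6M.

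The spermatid genes were at or near 0 outside the adult yaks and Y18M replicate 2. *KLHL10* had 0 counts in each Y6M library, 0, 3137 and 6 in Y18M, 4099, 4397 and 4536 in Y4Y and 41, 3 and 4 in CY. *SPEM2* had 0, 1 and 0 counts in Y6M, 0, 1451 and 2 in Y18M, 2133, 2448 and 2115 in Y4Y and 3, 0 and 0 in CY. With no count observed, the true level could still be as high as 3 counts, equal to 0.116, 0.0807 and 0.0977 CPM in the 3 Y6M libraries. In adult yak these 2 genes were read at 135.5 ± 13.1 and 84.6 ± 5.66 FPKM (SD, n = 3), above the mean of each of the 6 regulators.

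**Figure D1:**
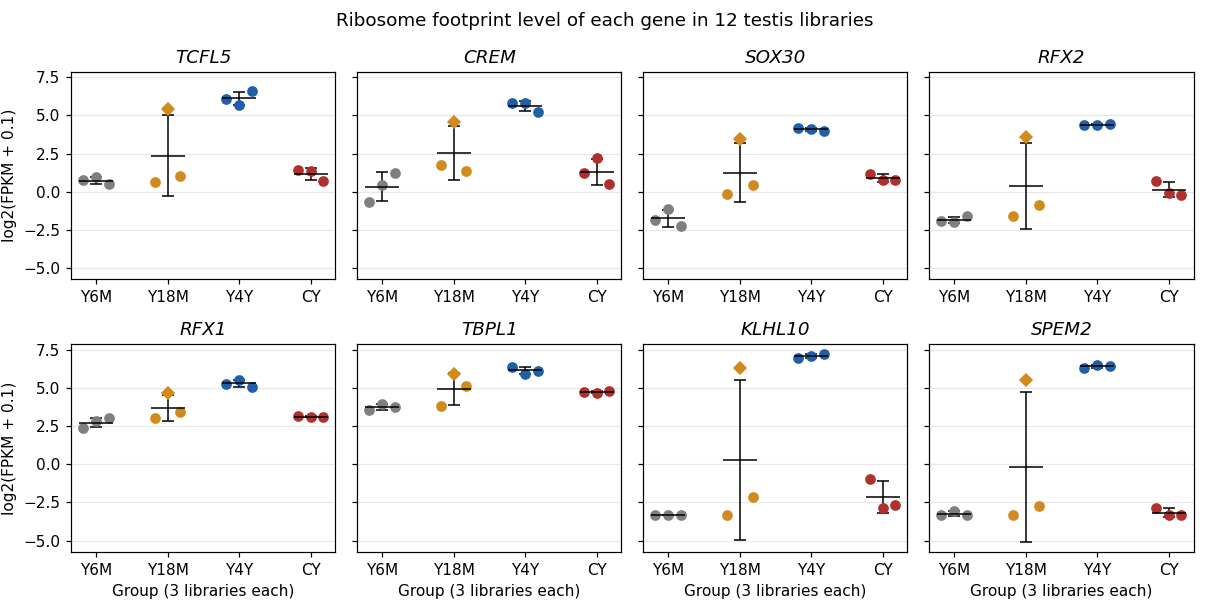
Level of each gene in each library, as log2(FPKM + 0.1) on the y axis, by group on the x axis. Points are libraries, the diamond is Y18M replicate 2, and the horizontal line and bars are the mean and SD of the 3 log values. The 3 Y4Y libraries lie above all others for each gene, and *RFX1* and *TBPL1* sit highest in Y6M and CY. The share of all genes whose Y4Y libraries lie above all others was not computed.

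The first comparison asked how the footprint levels of these genes differed between juvenile and adult yaks. Footprint counts alone do not separate the amount of mRNA from its translation, here and in the comparisons below. All 8 genes were called higher in Y4Y than in Y6M, with adjusted p-values of 4.59e-08 to 1.41e-05 (edgeR's quasi-likelihood test, Benjamini-Hochberg adjustment over 16133 genes), where a gene was called at an adjusted p under 0.05 if its fold change was also 1 or more on the log2 scale in either direction. The background is large, since 31.0% of all genes tested were called higher and 24.7% lower. *KLHL10* and *SPEM2* passed the filter on low counts through the adult libraries alone, so they had to differ. *RFX2*, with 9, 12 and 15 counts in Y6M, and *SOX30*, with 11, 30 and 8, also needed the adult libraries to pass. The median log2 fold change was 5.02 over the 6 regulators, beside 0.08 over all genes tested. It was 5.40 with *KLHL10* and *SPEM2* included.

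Among the regulators, *RFX2* rose by 6.27 ± 0.22 on the log2 scale (SE), *SOX30* by 5.71 ± 0.34, *CREM* by 5.10 ± 0.29 and *TCFL5* by 4.94 ± 0.28. *RFX1* rose by 2.01 ± 0.18 and *TBPL1* by 1.90 ± 0.17, so these 2 form the lower end of the range. For *KLHL10*, with 13032 counts in adult yak and 0 in juveniles, the level was at least 7833-fold higher, taking 3 counts over the whole juvenile group as the limit. *SPEM2*, with 6696 counts against 1, was 12075-fold higher with an exact 95% counting interval of 2166 to 476986.

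In the age-matched comparison of the hybrid with adult yak, all 8 genes were called lower in CY, with adjusted p-values of 3.91e-07 to 9.16e-05 (edgeR's quasi-likelihood test over 16498 genes), while 27.0% of all genes tested were called lower and 17.1% higher. The median log2 fold change was -3.76 over the 6 regulators and -0.0022 over all genes tested. It was -4.48 with *KLHL10* and *SPEM2* included. Both spermatid genes passed the filter through the adult yaks alone. In a whole testis, fewer cells of a type and fewer footprints per cell cannot be told apart, and this holds for each difference given here.

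The regulators covered a wide range of decrease. *TCFL5* fell by 4.99 on the log2 scale (SE 0.32), *CREM* fell by 4.67 (SE 0.35), *RFX2* fell by 4.28 (SE 0.29) and *SOX30* fell by 3.25 (SE 0.19). *RFX1* fell by 2.19 (SE 0.14), and *TBPL1* had the smallest decrease of the 8, as it fell by 1.39 (SE 0.15).

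*KLHL10* fell by 9.43 on the log2 scale (SE 0.60), and its pooled level was 678-fold lower in the hybrid, with an exact 95% counting interval of 511 to 919. Of the 48 hybrid counts of *KLHL10*, 41 came from CY replicate 1, and without that library it fell by 11.4. *SPEM2*, with 3 counts in all in the hybrid, was 5570-fold lower with an exact 95% counting interval of 1905 to 27016. Both intervals cover counting error only.

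**Figure D2:**
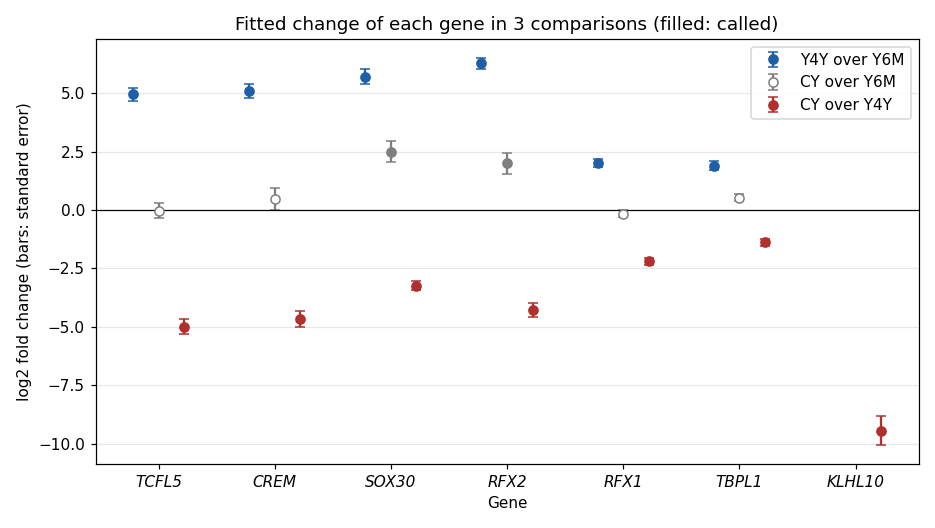
Log2 fold change of each gene on the y axis, with its standard error as a bar, in 3 comparisons that share libraries with each other. Filled points were called and open points were not, and *KLHL10* and *SPEM2* are left out where a group had 3 or fewer counts in every library. The changes from Y4Y to CY run from -1.39 for *TBPL1* to -9.43 for *KLHL10*.

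As a share of the mean adult yak level, on TMM-scaled CPM, the hybrids had 38.6% ± 2.45 of *TBPL1* and 22.1% ± 0.392 of *RFX1* (SD, n = 3). They had 10.6% ± 2.01 of *SOX30*, 5.09% ± 2.03 of *RFX2*, 3.92% ± 1.55 of *CREM* and 3.15% ± 0.860 of *TCFL5*. *KLHL10* was at 0.130% ± 0.161 and *SPEM2* at 0.0150% ± 0.0260. The ranges over the 3 hybrids did not overlap between *TBPL1*, at 35.9 to 40.8%, *RFX1*, at 21.7 to 22.5%, and *SOX30*, at 9.40 to 12.9%, while *RFX2*, *CREM* and *TCFL5* overlapped with each other.

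**Figure D3:**
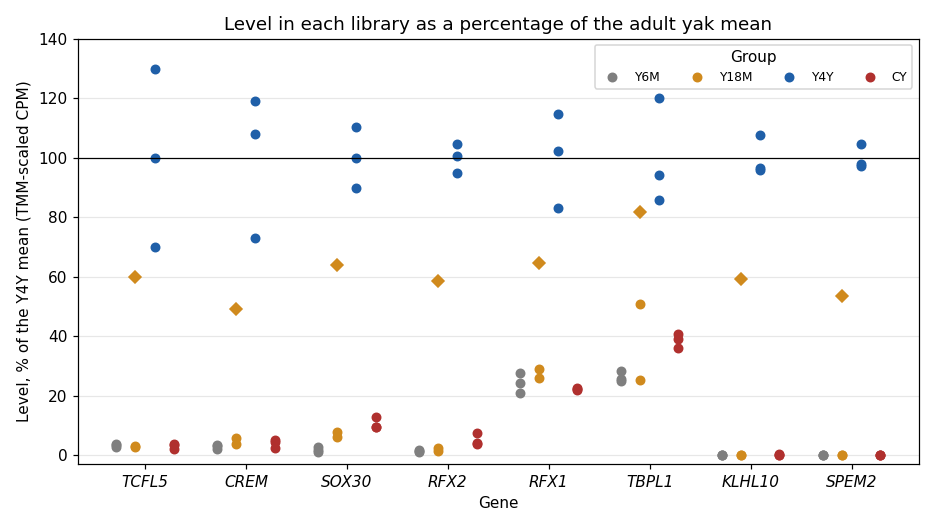
Level of each gene in each library as a percentage of the Y4Y mean, in TMM-scaled CPM, on a linear y axis. Points are libraries coloured by group, and the diamond is Y18M replicate 2, which lies between 49.1% (*CREM*) and 81.7% (*TBPL1*).

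*RFX1* and *RFX2* are paralogs that bind alike motifs. Counts of *RFX2* were 38.9, 31.5 and 46.0% of those of *RFX1* in the adult yaks, 12.6, 7.17 and 6.47% in the hybrids and 2.33, 1.57 and 2.10% in the juveniles. These 3 groups did not overlap, while the pubertal libraries, at 2.16, 34.4 and 2.97%, overlapped both the juveniles and the adult yaks. The log2 ratio of *RFX2* to *RFX1* differed by -2.19 between CY and Y4Y, with a two-sided exact permutation p of 0.1, the smallest that 3 against 3 libraries allow. This ratio was chosen after its values were seen.

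A further comparison set the hybrids against the juvenile yaks, with libraries that the 2 comparisons above also use. *SOX30* and *RFX2* were called higher in CY than in Y6M, by 2.50 ± 0.45 and 1.99 ± 0.46 on the log2 scale (SE), with adjusted p-values of 0.0019 and 0.0062 (edgeR's quasi-likelihood test), where 18.1% of 15571 genes were called higher and 19.7% lower. With all 12 libraries in 1 fit, *RFX2* was not called, at an adjusted p of 0.17 by edgeR's quasi-likelihood test. With 11, 30 and 8 counts in Y6M, *SOX30* needed the hybrid libraries to pass the filter. *TBPL1* differed by 0.54 ± 0.15, at an adjusted p of 0.017 but below the fold that a call needs.

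The remaining 3 regulators gave small estimates against the juveniles. The difference was -0.03 ± 0.32 for *TCFL5*, 0.46 ± 0.47 for *CREM* and -0.15 ± 0.15 for *RFX1* (log2, SE), with adjusted p-values of 0.93, 0.43 and 0.40 by edgeR's quasi-likelihood test. A band of 2 SE around these estimates runs from -0.68 to 0.61 for *TCFL5*, from -0.48 to 1.39 for *CREM* and from -0.45 to 0.14 for *RFX1*. Scaling by library size alone moved the median of all genes in this comparison from -0.02 to 0.52, and with it *TCFL5* to 0.50, *RFX1* to 0.37 and *TBPL1* to 1.07, which was then called. Relative to that median, *TCFL5* and *RFX1* stayed near 0. *CREM* moved to 0.97, above the shifted median, and was not called. *KLHL10* and *SPEM2* did not pass the filter here, while without a filter and by DESeq2, *KLHL10* was called higher in CY, at adjusted p-values of 0.036 and 0.021, on 41, 3 and 4 counts against 0 in each juvenile.

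The pubertal yaks were compared next. In Y18M over Y6M the calls were 0 of the 6 members that passed the filter (edgeR's quasi-likelihood test), with 4 at an unadjusted p below 0.05, beside 25.8% of all genes, and 0.0202% of all genes were called higher. DESeq2 called 0 of the 2 members to which it gave an adjusted p, *RFX1* and *TBPL1*, and gave none for the other 6. With all 12 libraries in 1 fit, *CREM*, *SOX30*, *RFX2*, *KLHL10* and *SPEM2* were called higher, beside 10.8% of all genes. Without Y18M replicate 2 the count was again 0, and 0.226% of all genes were called higher. In Y4Y over Y18M the calls were 0 of 8 (edgeR's quasi-likelihood test), with 1 at an unadjusted p below 0.05, beside 35.4% of all genes, while 0% of all genes were called higher. DESeq2 called 2, *CREM* and *RFX1*, beside 6.09% of all genes, and 1 fit of all 12 libraries called 1, *RFX1*, beside 6.63%.

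Leaving out Y18M replicate 2 turned the count of edgeR from 0 to 8 of 8, with 26.1% of all genes called higher. Without it, *KLHL10* had 0 and 6 counts in Y18M and *SPEM2* 0 and 2. These 2 genes then passed the filter through the adult yaks alone and had to differ, which leaves the regulators. Of these, *RFX2* had 12 and 23 counts in the same pubertal libraries, and it also needed the adult yaks to pass. *RFX2* was then 5.73 higher in adult yak on the log2 scale, *TCFL5* 5.18, *CREM* 4.46, *SOX30* 3.84, *RFX1* 1.88 and *TBPL1* 1.41. In that library itself the 6 regulators stood at 60.0% (*TCFL5*), 49.1% (*CREM*), 64.0% (*SOX30*), 58.4% (*RFX2*), 64.6% (*RFX1*) and 81.7% (*TBPL1*) of the adult mean, and *KLHL10* and *SPEM2* stood at 59.4% and 53.6%. The other 2 pubertal libraries had 2.67 and 2.87% of the adult level of *TCFL5* and 1.47 and 2.27% of that of *RFX2*, but 25.1 and 50.6% of that of *TBPL1*. The summed spermatid genes moved the same way, at 3672 TMM-scaled CPM in Y18M replicate 2 against 76.3 and 43.7 in the other 2 libraries, as did the summed Sertoli cell markers in the other direction, at 2084 against 8117 and 3267, and the part of cell composition in these levels was not tested.

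In CY over Y18M the calls were 0 of the 6 members that passed the filter (edgeR's quasi-likelihood test), with 0 at an unadjusted p below 0.05, beside 30.3% of all genes, and 2.34% of all genes were called lower. DESeq2 called 0 of the 3 members to which it gave an adjusted p, *CREM*, *RFX1* and *TBPL1*, and gave none for the other 5. A single fit of all 12 libraries called *SPEM2* lower, beside 10.1% of all genes. Without Y18M replicate 2 the count was 0 as well, with 8.04% of all genes called lower. The estimates changed sign for 4 genes when that library was left out, from -2.00 to 1.43 for *RFX2*, from -1.28 to 0.59 for *SOX30*, from -2.77 to 0.18 for *TCFL5* and from -0.44 to 0.02 for *TBPL1*.

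The regulators were also set against *KLHL10* within each library, as the log2 ratio of their counts with 0.5 added to both. In adult yak every regulator lay below *KLHL10*, with mean log2 ratios between -2.66 ± 0.24 for *SOX30* and -1.12 ± 0.32 for *RFX1* (SD, n = 3). In the hybrid every regulator lay above it, between 2.88 ± 1.69 for *CREM* and 6.97 ± 1.68 for *RFX1*. The differences between CY and Y4Y were 8.88 for *TBPL1*, 8.08 for *RFX1*, 7.0 for *SOX30*, 5.89 for *RFX2*, 5.53 for *CREM* and 5.27 for *TCFL5*.

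None of the 6 pairs of ranges overlapped between CY and Y4Y. Each exact permutation p was 0.1, two-sided, as was each adjusted p over the 6 regulators, the smallest that this design can give. Any gene that falls less than *KLHL10* rises in this ratio, and *KLHL10* was 678-fold lower in the hybrid. The lack of overlap is therefore no result about the regulators, and the share of all genes without overlap was not computed. The hybrid ratios rest on 41, 3 and 4 counts of *KLHL10*, and without CY replicate 1 the difference of *TBPL1* was 9.85. In Y18M replicate 2 the log2 ratios, from -2.89 for *CREM* to -0.98 for *RFX1*, lay close to those of the adult yaks. The exact permutation p was 0.1 to 0.5 for Y18M over Y6M and 0.1 to 0.3 for Y4Y over Y18M, and every adjusted p was at least 0.3. For Y18M over Y6M the differences ran from -4.87 for *RFX1* to -2.38 for *SOX30*, and without Y18M replicate 2 from -2.09 for *TCFL5* to 0.14 for *SOX30*. For Y4Y over Y18M the differences ran from -3.82 for *RFX2* to -6.83 for *TBPL1*, and without Y18M replicate 2 from -5.75 to -10.0 for the same genes, with an exact permutation p of 0.2, two-sided. In Y6M *KLHL10* was at 0 in every library, so the ratios there depend on the counts added.

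Counts of *SPEM2* were 52.0, 55.7 and 46.6% of those of *KLHL10* in the 3 adult yaks and 46.3% in Y18M replicate 2, whereas in the hybrid *SPEM2* was too low for a ratio.

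**Figure D4:**
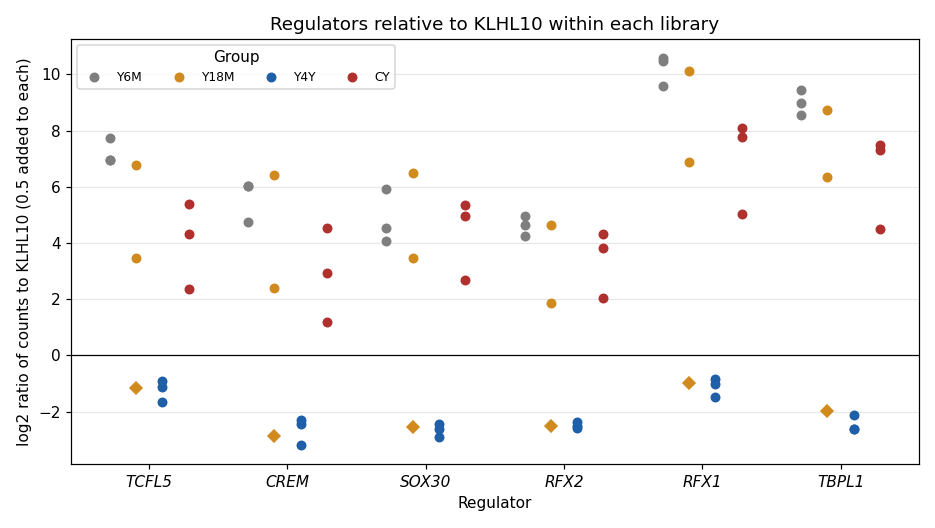
Log2 ratio of the counts of each regulator to those of *KLHL10* in the same library, with 0.5 added to each count, on the y axis. Points are libraries coloured by group, and the diamond is Y18M replicate 2. Y4Y and Y18M replicate 2 lie below 0 for each regulator, and all CY and Y6M libraries lie above 0.

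The regulators were set beside spermatocyte markers, 11 genes of meiotic prophase such as *SYCP3*, *HORMAD1* and *DMC1*. Their sum in TMM-scaled CPM was 180 to 231 in Y6M, 226 to 714 in Y18M, 826 to 931 in Y4Y and 404 to 725 in CY. In CY over Y4Y, 4 of the 11 were called lower and 0 higher, beside 27.0% and 17.1% of all genes, and the median on the log2 scale was -0.86. *SYCP3*, of the synaptonemal complex, read 112.7 ± 35.3 FPKM in CY and 69.9 ± 9.47 FPKM in Y4Y (SD, n = 3), and was not called. Its log2 fold change of 0.70 was the only positive one among the 11 markers. *HORMAD1* and *DMC1* changed by -0.39 and -0.77 on the log2 scale and were not called either.

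As a percentage of this marker sum, *TCFL5* was at 8.21 to 13.5% in Y4Y and 0.434 to 0.843% in CY, and *RFX2* at 4.22 to 4.56% and 0.304 to 0.401%. *RFX1* was at 9.18 to 14.3% in Y4Y, 3.19 to 5.53% in CY and 11.95 to 13.3% in Y6M. Of the 11 markers, 10 were called higher in Y4Y than in Y6M, beside 31.0% of all genes. The other was *HORMAD1*, at 148 ± 31.2 FPKM in Y6M and 217 ± 27.7 in Y4Y, while *SYCP3* was at 1.15 ± 0.667 FPKM in Y6M (SD, n = 3). The Y6M percentage therefore cannot be read as a level per spermatocyte, and the share of *HORMAD1* in the sum was not computed. *TBPL1* was at 4.12 to 5.43% in Y4Y and 2.19 to 3.61% in CY. *CREM*, at 2.83 to 4.79% and 0.164 to 0.465%, and *SOX30*, at 3.37 to 4.30% and 0.622 to 0.815%, followed the same order, so all 6 regulators lay lower in the hybrids than in the adult yaks, without overlap, also per spermatocyte marker. On the same measure, 21.6% of all genes tested lay lower in every hybrid than in every adult yak, and 49.1% lay higher. The part of cell composition in the decreases was not tested.

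Other cell types moved as well. In CY over Y4Y, spermatogonial markers were called higher for 5 of 10 and lower for 0, Sertoli cell markers higher for 4 of 8 and lower for 0, Leydig cell markers higher for 3 of 3, and peritubular markers higher for 7 of 7. Endothelial markers had 1 of 7 called lower and 0 higher, and macrophage markers 1 higher and 2 lower of 7. Of all genes tested, 17.1% were called higher and 27.0% lower. The Sertoli cell sum was 663 to 951 in Y4Y and 1387 to 1667 in CY, the Leydig cell sum 93.5 to 223 and 716 to 1199, and the spermatogonial sum 568 to 731 and 1281 to 1333. No marker of these 6 lists was at 0 in every library of a group in Y4Y or CY. Their part in the lower share of the regulators was not tested.

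Genes of the stages in which the regulators act fell with them. Of 13 pachytene genes, among them genes of the piRNA pathway, 12 were called lower in CY than in Y4Y, with a median log2 fold change of -3.27. The share of all genes called lower was 27.0%. *CLGN*, a chaperone of the endoplasmic reticulum, was at 2634 ± 337 FPKM in Y4Y and 271 ± 25.9 in CY, and *ADAM2*, a sperm surface protein, at 1152 ± 176 and 12.8 ± 9.43 (SD, n = 3). *DDX25*, an RNA helicase of germ cells, was at 612 ± 34.5 and 76.1 ± 18.8 FPKM.

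The 12 spermatid genes tested were called lower, with a median log2 fold change of -9.11, but only 6 of them passed the filter in CY over Y6M, so the others entered through the adult yaks alone and had to differ. *TNP1*, a transition protein that packs spermatid chromatin, was at 8989 ± 1737 FPKM in Y4Y and 8.81 ± 12.8 in CY, *ACE*, whose short form is made in spermatids, at 1116 ± 127 and 6.85 ± 1.17, and *ACRV1*, an acrosomal protein, at 727 ± 203 and 0.893 ± 0.839 (SD, n = 3). Of 13 axoneme genes, which build the core of the sperm tail, 13 were called lower, with a median of -4.62. Among these, 1 had under 10 counts in every CY library. Both lists stand beside 27.0% of all genes called lower. The median of the 6 regulators was -3.76, between those of the pachytene genes and the axoneme genes, as the plot of the lists shows.

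**Figure D5:**
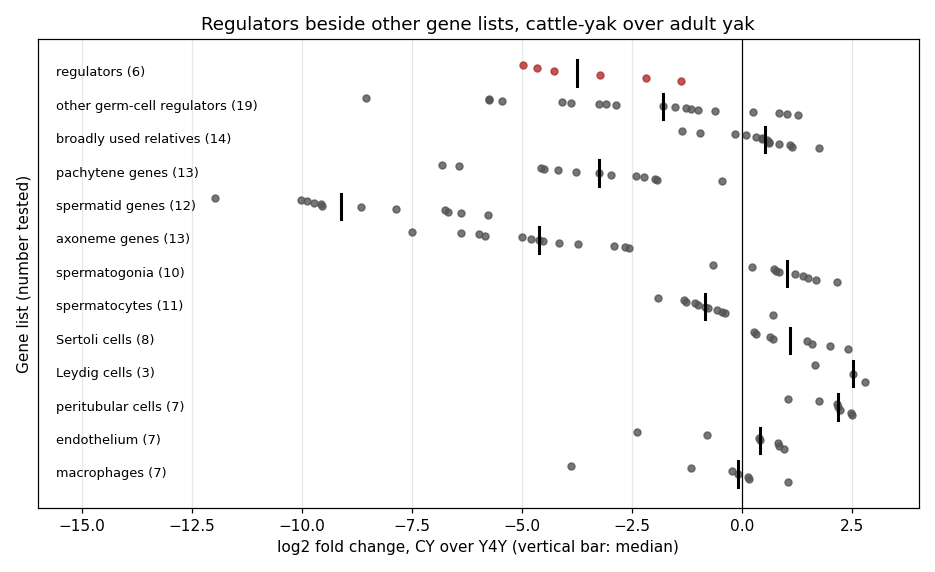
Log2 fold change of CY over Y4Y on the x axis for the 6 regulators (red) and for the genes of 12 lists (grey), with the number tested in brackets. Points are genes and the vertical bars are medians, which run from -9.11 for the spermatid genes to 2.50 for the Leydig cell markers.

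Other regulators of germ cells were mixed. Of 19, 13 were called lower and 2 higher in CY than in Y4Y, with a median of -1.79, and 16 were called higher in Y4Y than in Y6M. The shares of all genes were 27.0% lower and 17.1% higher in CY over Y4Y, and 31.0% higher in Y4Y over Y6M. *YBX2*, which binds stored mRNA, fell from 507 ± 80.9 FPKM in Y4Y to 9.18 ± 3.23 in CY, whereas *TAF7L*, a germ cell subunit of TFIID, rose from 80.4 ± 3.35 to 191.9 ± 15.1 (SD, n = 3, both called). *HSF2*, a heat shock factor, was at 47.2 ± 1.01 and 83.3 ± 16.1 FPKM. It differed by 0.83 on the log2 scale, at an adjusted p of 0.0021 (edgeR's quasi-likelihood test) but below the fold that a call needs.

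Of 14 relatives of the regulators that many cell types use, 1 was called lower and 3 higher in CY than in Y4Y, beside 27.0% and 17.1% of all genes, and the median on the log2 scale was 0.51. The one called lower was *RFX5*, a factor of MHC class II genes, at 18.9 ± 0.854 FPKM in Y4Y and 7.19 ± 1.24 in CY (SD, n = 3). *MYB*, *SOX4* and *SOX12* were called higher, by 1.13, 1.74 and 1.09 on the log2 scale. *CREB1*, a relative of *CREM*, was at 7.36 ± 0.521 FPKM in Y4Y and 12.9 ± 1.02 in CY and did not count as called (0.84 on the log2 scale). *GTF2A1*, which binds TATA-binding proteins, was at 77.1 ± 11.7 and 103.4 ± 8.0 FPKM and was not called either. Its change was 0.44 on the log2 scale, at an adjusted p of 0.025 (edgeR's quasi-likelihood test) but below the fold needed.

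Against the juveniles the stage lists split. In CY over Y6M, 12 of 13 pachytene genes were called higher and 0 lower, 10 of 11 spermatocyte markers higher and 0 lower, and 9 of 12 axoneme genes higher and 0 lower, beside the 2 of 6 regulators. Some of these genes, such as *ADAM2* at 0.117 ± 0.132 FPKM and *MEIG1* at 0.133 ± 0.231 in Y6M (SD, n = 3), were near 0 in the juveniles. Such genes passed the filter through the hybrids. Of the 12 spermatid genes, 6 passed the filter, and 4 were called higher and 1 lower. Of all genes tested there, 18.1% were called higher and 19.7% lower.

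FPKM also carries the length that the authors' counting assigned to each gene, and this length can be recovered from a count, its FPKM and the library total. For 7 of the 8 genes it varied little, with a highest over lowest ratio of 1.0 to 1.10. For *CREM*, a gene with many promoters and transcript forms, the ratio was 2.03. Its implied length was 818 to 837 bases in the adult yaks and 837 in Y18M replicate 2, but 468 to 796 in the hybrids and 459 to 932 in the juveniles, on 13 to 93 counts. For this gene FPKM and counts therefore order the low libraries differently, and the change in length between forms was not tested.

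Across the 12 libraries, the genes most like each of 7 members by Pearson's r of log2 CPM, among 12073 others with a symbol, are given as a description, because the 4 groups set most of each r. They were *RGS8*, *NEK10* and *ARG1* for *TCFL5* (0.994 to 0.995) and *RIBC2*, *CFAP58* and *PRSS38* for *SOX30* (0.993). For *RFX2* they were *DRC1*, *CALR3* and *FAM71E1* (0.995 to 0.996), for *RFX1* *ENTR1*, *HAGHL* and *CEP164* (0.989 to 0.993) and for *TBPL1* *ZC2HC1C*, *PDZD9* and *ZC3H14* (0.983 to 0.989). *KLHL10* was most like *FAM71A*, *DNAJB7* and *ANKRD61* (0.997), and *SPEM2* most like *FAM166C*, *CCDC160* and *P3R3URF* (0.995 to 0.996). Among the members, r ranged from 0.859 for *SOX30* with *RFX1* to 0.989 for *RFX2* with *KLHL10*.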

How the data were processed

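Ribosome profiling was carried out on 12 testis libraries, 3 per group and 1 per animal. The labels name Bowtie2 and RSEM among the authors' tools. Per the methods, reads that matched rRNA or other small RNA were removed, fragments of 20 to 40 bases were kept and aligned to the yak assembly BosGru with STAR, hybrid libraries included, and RSEM counted them in open reading frames. The deposited expected counts are estimated counts rounded to whole numbers, used here as deposited, and the deposited FPKM values are the authors' own per gene length and library total. The tables also hold group means and the authors' fold changes and p-values, which were not used.

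Counts were tested with edgeR 4.0.16 (filterByExpr, TMM, quasi-likelihood test, Benjamini-Hochberg) on the 6 libraries of each of 6 comparisons, and the SE is the log2 fold change over the square root of F. A call needed an adjusted p below 0.05 and an absolute log2 fold change of at least 1. Ratios to *KLHL10* were tested with an exact permutation test (scipy 1.17.1). DESeq2 1.42.0, limma 3.58.1, other scaling, no filter, 1 fit of all libraries, the replicate block and each library left out were alternatives, and the tests were checked on simulated data. Sequences and coordinates were not used here. Low counts limit *KLHL10* and *SPEM2*, and intervals cover counting error only. The members and gene lists (other germ-cell regulators, broadly used relatives, pachytene, spermatid and axoneme genes, and markers of spermatogonia, spermatocytes, Sertoli cells, Leydig cells, peritubular cells, endothelium and macrophages) were chosen with earlier results of these data known. Named were all members, the 3 list genes with the highest mean FPKM, relatives, and the 3 most alike genes per member, of which those of *CREM* are not reported here. Other genes of a count of 5 or fewer were named after their values were seen.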

Additional observations from a re-analysis of the deposited data

How the results depend on the processing

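Across the alternatives, the 8 calls of Y4Y over Y6M and the 8 calls of CY over Y4Y were each again 8, leaving out any single library included. The other comparisons depended on the setting. In Y18M over Y6M the members called went from 0 to 5 with all 12 libraries in 1 fit (10.8% of all genes called higher), of which *KLHL10* and *SPEM2* had 0 or 1 count in each Y6M library, and ranged from 0 to 3 when 1 library was left out, the 3 without Y18M replicate 1 (8.70% of all genes). In Y4Y over Y18M they went from 0 to 2 with DESeq2 and to 1 with all 12 libraries. They ranged from 0 to 8 when 1 library was left out, the 8 without Y18M replicate 2 (26.1% of all genes). Of those 8, *KLHL10*, *SPEM2* and *RFX2* needed the Y4Y libraries to pass the filter. In CY over Y18M they went from 0 to 1, and in CY over Y6M from 2 to 1, with all 12 libraries in 1 fit, and also from 2 to 1 with limma on log2(FPKM + 1), while they were 3 with DESeq2 and with no filter, which added *KLHL10*, and with library size alone, which added *TBPL1*. The causes were not tested, except that a fit of all 12 libraries shares 1 estimate of the spread.

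The log2 fold change of *TCFL5* in CY over Y6M, -0.03, became 0.00095 with DESeq2, 0.50 with library size alone, 0.31 with limma on log2(FPKM + 1) and 0.45 with log2(FPKM + 0.1), and ranged from -0.18 to 0.18 when 1 library was left out. That of *CREM*, 0.46, became 0.97 with library size alone and with log2(FPKM + 0.1). That of *RFX1*, -0.15, became 0.37, 0.35 and 0.39 with library size alone and the 2 limma settings. Leaving out 1 library gave -0.20 to 3.36 for *TCFL5* in Y18M over Y6M, and in CY over Y18M -3.28 to 0.18 for *TCFL5*, -1.73 to 0.59 for *SOX30*, -2.54 to 1.43 for *RFX2* and -0.76 to 0.020 for *TBPL1*. The log2 ratio of *SOX30* to *KLHL10* in Y18M over Y6M ranged from -4.39 to 0.14. The sign turned without Y18M replicate 2 in each of these comparisons with Y18M.

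The replicate numbers are shared between groups but nothing states that they pair animals, and same-numbered libraries did not deviate together, since 0 of 3 pairs had a correlation over 0.1 in each comparison but CY over Y18M, which had 1. With the replicate block the members called were 8 in Y4Y over Y6M, 8 in CY over Y4Y, 2 in CY over Y6M and 0 in each comparison with Y18M. Scaling by library size alone moved the median of all genes in Y4Y over Y6M from 0.08 to 0.64, and the share called higher from 31.0% to 40.9% and lower from 24.7% to 15.5%. In CY over Y6M these shares went from 18.1% to 31.3% and from 19.7% to 12.04%. The adult yak libraries were the shallowest and those of the hybrids the deepest. Low counts limit the members mainly in *SPEM2* and *KLHL10*, outside Y4Y and Y18M replicate 2.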

Other observations

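Of the 1378 genes to which the tables assign a transcription factor family, 1115 were tested in CY over Y4Y, with 239 called lower and 213 higher. These are 21.4% and 19.1%, beside 27.0% and 17.1% of all genes tested. *TCFL5*, *RFX2*, *SOX30* and *RFX1*, the 4 members that carry such a family, stood at ranks 33, 50, 79 and 129 from the most decreased. In Y4Y over Y6M, 263 of 1075 were called higher and 283 lower, that is 24.5% and 26.3%, beside 31.0% and 24.7% of all genes. The ranks from the most increased were 42 for *RFX2*, 54 for *SOX30*, 60 for *TCFL5* and 185 for *RFX1*. This grouping was chosen after the files were seen and was not tested.

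*RFX3* and *RFX4*, further RFX factors from the list of other germ cell regulators, had log2 fold changes in CY over Y4Y of -2.86 and -5.46, and *GTF2A1L*, the germ cell relative of *GTF2A1*, of -5.75, all called by edgeR's quasi-likelihood test. *TAF4B*, a TFIID subunit, was called higher, by 1.01. Of all genes tested, 27.0% were called lower and 17.1% higher. These 4 genes were chosen after their values were seen.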
